A study of Mus musculus with 96 samples.

Results

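In 18-month-old mice, gene expression of the hemisphere made ischemic (ipsilateral, IP) was set against that of the opposite hemisphere (contralateral, CL) of the same animal, 2 h after the start of a stroke by middle cerebral artery occlusion (MCAO). There were 8 such mice with 1 array per hemisphere, 16 of the 96 arrays of the series, chosen by their labels for age, treatment and side. All were C57Bl/6j males, called old here, with no genetic change. A filament through the carotid artery closed the MCA for 90 min, and the tissue was taken 30 min after its removal. The IP side is the right one. Only mice whose cortical blood flow fell and recovered were kept. The RNA came from each side of a 1-mm slice at bregma, the core of the territory, after perfusion with cold saline, so it mixes every cell type of cortex and striatum in that slice. The controls were 4 old C57Bl/6j males with sham surgery, which went through the same steps without the filament. Each p-value rests on the spread between mice, which limma moderates with that of all genes tested, so an SE can be smaller than the SD of the gene itself would give. Values are log2 signals of Clariom S Mouse arrays, on which a difference of 1 is a doubling of the signal.

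Loss of blood flow stops the energy supply of neurons and glia within minutes. Neurons depolarise, glutamate and calcium rise, and waves of depolarisation can spread from the core over the cortex. The first genes to respond are immediate early genes, which need no new protein to be transcribed. Transcription factors such as Npas4, Fos and Egr2 follow synaptic activity and calcium, the heat shock proteins follow unfolded proteins through the factor Hsf1, and chemokines and cytokines such as Ccl3 and Il1a are made by microglia and other resident cells before leukocytes arrive.

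The array signals had like distributions, with medians between 6.19 and 6.33 and a median correlation with the other old arrays between 0.984 and 0.988. In MCAO mouse 8 part of the genes below stood the other way round. Of the 36 genes called higher in IP, 27 had less signal in its array labelled IP than in that labelled CL. Among them were Hspa1a, Ccl3 and Ccn1. The other 9, and 11 of the 13 genes called lower, went with the mean. That mean includes mouse 8, so part of this agreement is built in. Only 5 of the 13 lower genes were called without mouse 8. Over the 4877 genes tested, IP minus CL of this mouse correlated at −0.11 with the mean of the other 7 mice, while the other mice gave 0.06 to 0.19, a description over genes, which are not independent. Whether its arrays carry exchanged labels was not tested, and the labels were kept. The main results are given with and without this mouse. Among cell type markers, Snap25 of neurons had a mean log2 signal of 13.1 in both hemispheres. The T cell marker Cd3e was low, at 3.55 in IP and 3.43 in CL. Cd4, also in the lymphocyte list, was not low, at 7.42 to 9.61 in IP and 8.77 to 9.62 in CL after MCAO. The reason for its high signal was not tested.

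After MCAO, 36 genes were higher and 13 lower in IP than in CL in the old mice, 0.738% and 0.267% of the 4877 genes tested, at an adjusted p under 0.25 in limma. At an adjusted p under 0.05, 24 were higher and 2 lower (0.492% and 0.041%). In the sham mice limma called 0 genes in the same model, with 241 at an unadjusted p under 0.05, near what chance alone gives. There were 4 sham mice against 8 MCAO mice, so the sham contrast had less power to call a gene. The higher genes included 12 immediate early transcription factors, led by Npas4 at 7.61-fold, the chemokine gene Ccl3 at 4.14-fold, the cytokine gene Il1a at 3.43-fold and the heat shock genes Hspa1b and Hspa1a at 3.25-fold and 3.12-fold. Without mouse 8, 58 genes were higher and 12 lower (1.19% and 0.246%), 70 in all (1.44%). All 36 higher genes were still called then, but only 5 of the 13 lower ones, Gm9958, Fkbp11, Rbpjl, Slc39a2 and Cd4. Mouse 8 was left out because its differences looked reversed. By itself this raises the mean of higher genes that it opposed and can weaken genes that it went with. All counts and p-values without mouse 8, also those against sham mice, are therefore a description and no independent test. The calls depend on the filter, which keeps the genes that vary most over the old arrays and so favours genes that differ between hemispheres. With no filter 8 of 19505 genes were called, 5 of them among the 49, and with a filter on the mean signal 194. The 5 were Npas4, Fos, Fosb, Ptgs2 and Dusp6. Genes with a large spread between mice were not called by limma then, as Hspa1a (adjusted p = 0.494), Ccn1 (0.539), Tnf (0.536) and Atf3 (0.465).

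Fold changes of the transcription factors were largest for Npas4, a factor that neurons make on calcium entry and that steers inhibitory synapses (chr19:4984353-5003439, GRCm38.p6). Its log2 signal in IP ran from 10.09 over a median of 10.68 to 11.88, and in CL from 6.30 over 7.34 to 11.13. In the sham mice it was 6.61, 6.70, 6.39 and 6.37 in IP and 7.19, 8.54, 6.43 and 6.45 in CL. All 8 IP arrays of MCAO mice thus lay above all 8 sham arrays, but the hemispheres overlapped after MCAO, since the CL arrays of mice 6 and 8 reached 11.13 and 9.76 while the other 6 stayed at or below 8.04. IP minus CL was 2.93 ± 1.53 (SD, n = 8; SE 0.29, adjusted p = 8.33e-10), higher in 8 of 8 mice, and 3.30 without mouse 8 (adjusted p = 2.36e-11). The difference also exceeded that of the sham mice, by 3.56 (SE 0.50, adjusted p = 2.21e-05).

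Fos, a subunit of the AP-1 factor (chr12:85473890-85477274), had log2 signals in IP from 9.11 over 9.68 to 10.43 and in CL from 7.14 over 7.69 to 10.10. The sham mice lay between 7.07 and 7.53 in both hemispheres, below every IP array after MCAO. Again mice 6 and 8 were the only ones with a high CL signal, at 10.10 and 9.31. The mean difference was 1.69 ± 1.04 (SD, n = 8; adjusted p = 8.57e-06), higher in 7 of 8 mice, and against sham it was 1.74 (SE 0.40, adjusted p = 0.134). Fosb, of the same family, was 1.53 ± 0.93 higher (adjusted p = 1.67e-05) in 8 of 8 mice, and 1.88 higher than in sham (adjusted p = 0.0335). The other AP-1 genes called were Junb at 0.92 and Jun at 0.81.

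**Figure D1:**
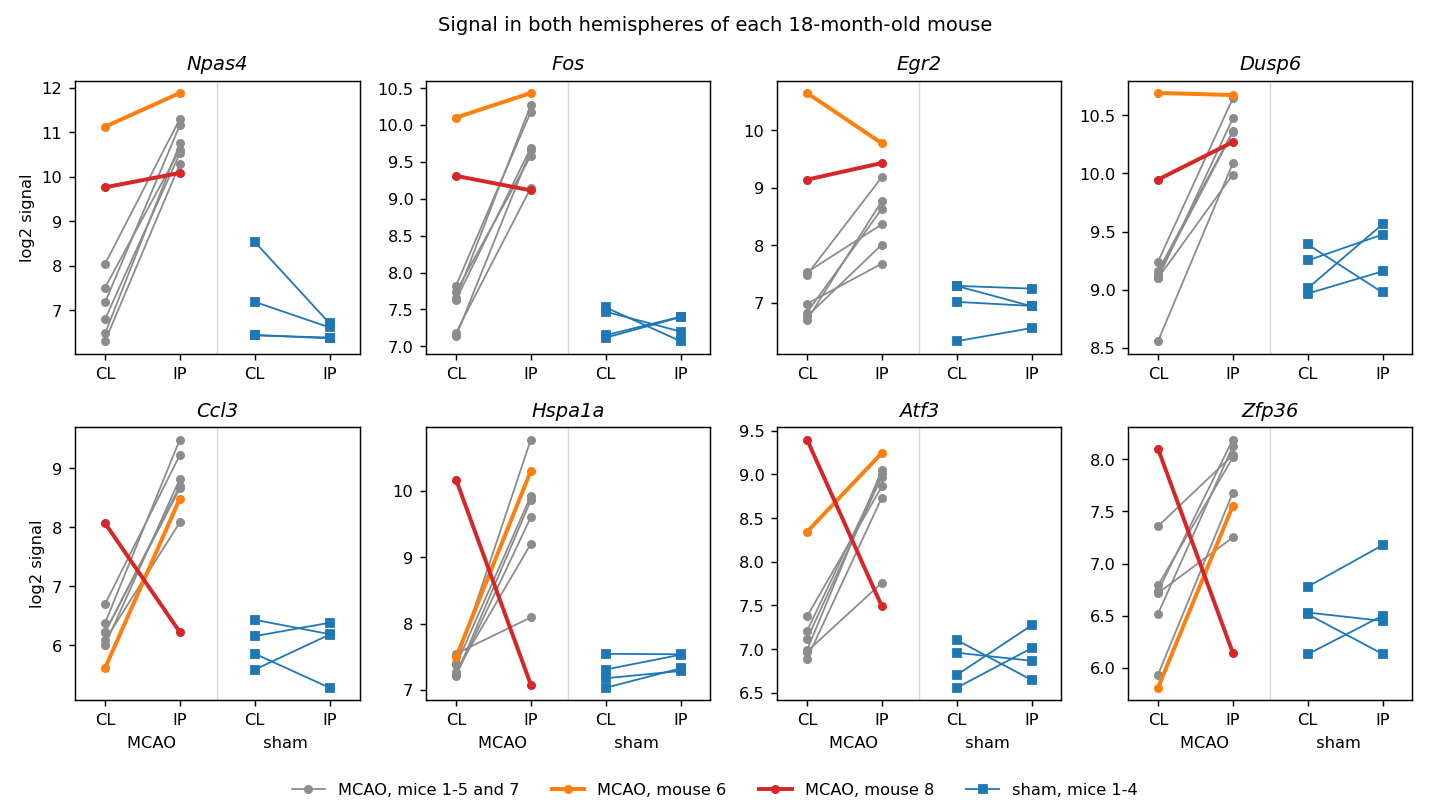
Log2 signal of 8 genes in the CL and IP array of each old mouse, joined by a line (grey, orange and red: 8 MCAO mice; blue squares: 4 sham mice). In the upper row mice 6 and 8 were high on both sides, as for Npas4 with CL signals of 11.13 and 9.76, while in the lower row mouse 8 was high only in the array labelled CL, as for Hspa1a at 10.17 against 7.08 in IP.

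Of 29 measured genes in a list of immediate early transcription factors, 12 were called higher, 0 lower and 17 were not called. Of the 29, 19 had passed the filter, and a gene that did not pass was not tested and could not be called, here and in the lists that follow. The median difference of the list was 0.44, beside −0.01 over all genes tested, and 28 of 29 had a mean above 0. Without mouse 8, 13 were called and the median was 0.54. The zinc finger factors Egr2, Egr4 and Egr1 were 0.97 (adjusted p = 0.0243), 0.95 (adjusted p = 0.0196) and 0.62 (adjusted p = 0.231) higher. The orphan nuclear receptors Nr4a1 and Nr4a3 were 1.13 (adjusted p = 0.00443) and 0.88 (adjusted p = 0.0444) higher. Atf3, a factor of the stress response, was 1.10 ± 1.30 higher (adjusted p = 0.0253) and 1.54 without mouse 8 (adjusted p = 3.09e-06), and Maff, a small Maf protein, was 0.73 higher (adjusted p = 0.135).

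Among genes that carry neuronal activity on to the synapse, 5 of 19 measured (9 tested) were called higher, 0 lower and 14 not, of which 10 were not tested, with a list median of 0.24. Ptgs2, the inducible cyclooxygenase of prostaglandin synthesis, had log2 signals in IP from 9.10 over 9.81 to 10.59 and in CL from 7.85 over 8.10 to 10.46. It was higher in IP in 8 of 8 mice, mouse 8 included with 0.89, at a mean of 1.31 ± 0.73 (adjusted p = 0.000134). Its difference from sham was 1.53 (SE 0.36, adjusted p = 0.134). Arc, which moves AMPA receptors from the synapse, was 0.79 higher (adjusted p = 0.0439), Bdnf, a growth factor of neurons, 0.70 (adjusted p = 0.12) in 8 of 8 mice, Nptx2, which gathers glutamate receptors, 0.66 (adjusted p = 0.151) and Rgs2, a brake on G proteins, 0.85 (adjusted p = 0.0369). In the rest of the prostaglandin pathway 0 of 14 further genes were called, 5 of them tested.

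A few genes that end such signals rose too. Of 21 phosphatases and feedback inhibitors of MAP kinase and G protein signalling (9 tested), 3 were called higher, Dusp6, Rgs1 and Rgs2, and 0 lower, with a list median of 0.19. Dusp6, which switches off ERK, was 0.99 ± 0.56 higher (adjusted p = 0.00502), with IP signals from 9.99 to 10.67 and CL signals from 8.56 to 9.24 apart from mice 6 and 8, at 10.69 and 9.95. Of 15 genes of mRNA decay and early feedback (5 tested) 2 were called higher, Btg2 at 0.81 (adjusted p = 0.115) and Zfp36, which marks cytokine mRNA for decay, at 0.88 (adjusted p = 0.139).

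Of 23 heat shock chaperone genes measured, 3 were tested and 2 of these called higher, 0 lower, and the other 20 were not tested, with a list median of 0.08, beside 0.09 in sham mice. The called genes were Hspa1a and Hspa1b, which encode the inducible Hsp70. Their sequences are nearly identical, so their probe sets cannot be taken as separate measurements. Hspa1a (chr17:34969359-34972156) had log2 signals in CL from 7.22 to 7.55 in mice 1 to 7 and of 10.17 in mouse 8. In IP it had 10.78, 9.93, 8.09, 9.61, 9.86, 10.30 and 9.20 in mice 1 to 7 and 7.08 in mouse 8. In the sham arrays it lay between 7.03 and 7.54. One hemisphere was thus high in each MCAO mouse, least in mouse 3, and the other stayed near the sham level, also in mouse 6. The mean difference was 1.64 ± 2.09 (SD, n = 8; adjusted p = 0.00676) over 8 mice and 2.32 over 7 (adjusted p = 3.27e-09), 4.99-fold. Over 8 mice the moderated SE was 0.34, and with no filter 0.54 (adjusted p = 0.494). Against sham it was called only without mouse 8, at 2.17 (SE 0.38, adjusted p = 0.0022). The small heat shock gene Hspb1 was called only without mouse 8 as well, at 0.98 (adjusted p = 0.00959), from −0.13 to 1.73 in mice 1 to 7 and −2.48 in mouse 8. Of 23 endoplasmic reticulum chaperones and genes of the unfolded protein response, 1 was tested, Fkbp11, and called lower, with a list median of 0.03.

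Among chemokine and cytokine genes 6 rose. Ccl3 (chr11:83647843-83649378), a chemokine of activated microglia, had log2 signals in IP of 9.48, 8.08, 8.82, 8.69, 9.22, 8.48 and 8.66 in mice 1 to 7, against 6.22 in mouse 8. In CL it lay between 5.61 and 6.70 in mice 1 to 7 and at 8.07 in mouse 8, and in sham mice between 5.28 and 6.43. In mice 1 to 7 the hemispheres did not overlap. The mean difference was 2.05 ± 1.61 (SD, n = 8; adjusted p = 9.86e-06), 2.61 without mouse 8 (adjusted p = 5.69e-12), and 2.05 against sham (SE 0.50, adjusted p = 0.134). Its neighbour Ccl4, whose annotated span overlaps that of Ccl3, was 1.11 higher (adjusted p = 0.0116), the chemokine receptor-like gene Ccrl2 0.97 (adjusted p = 0.0255) and Cxcl2, which draws neutrophils, 0.70 (adjusted p = 0.22). These were the 4 called of 36 chemokine and receptor genes measured (20 tested), whose median difference was 0.06.

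Il1a, the interleukin of early sterile injury, had log2 signals in IP from 3.00 over 4.79 to 5.81 and in CL from 2.22 over 2.82 to 4.03, and was 1.78 ± 1.56 higher (adjusted p = 0.000193) in 7 of 8 mice. Tnf was 1.14 ± 1.45 higher (adjusted p = 0.033), with IP signals from 2.86 to 6.45. They were the 2 called of 25 cytokine genes (15 tested), whose median was 0.14. Il1b, at 0.71 over 8 mice (adjusted p = 0.413), and Ccl2, at 0.65 (adjusted p = 0.416), were called only without mouse 8, at 0.95 (adjusted p = 0.0463) and 0.89 (adjusted p = 0.0413). The cytokine gene Lif was not called after MCAO, at 0.38, but differed from sham by 1.50 (SE 0.36, adjusted p = 0.134), and 4 of 4 sham mice had less in IP, with differences from −2.11 to −0.13.

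**Figure D2:**
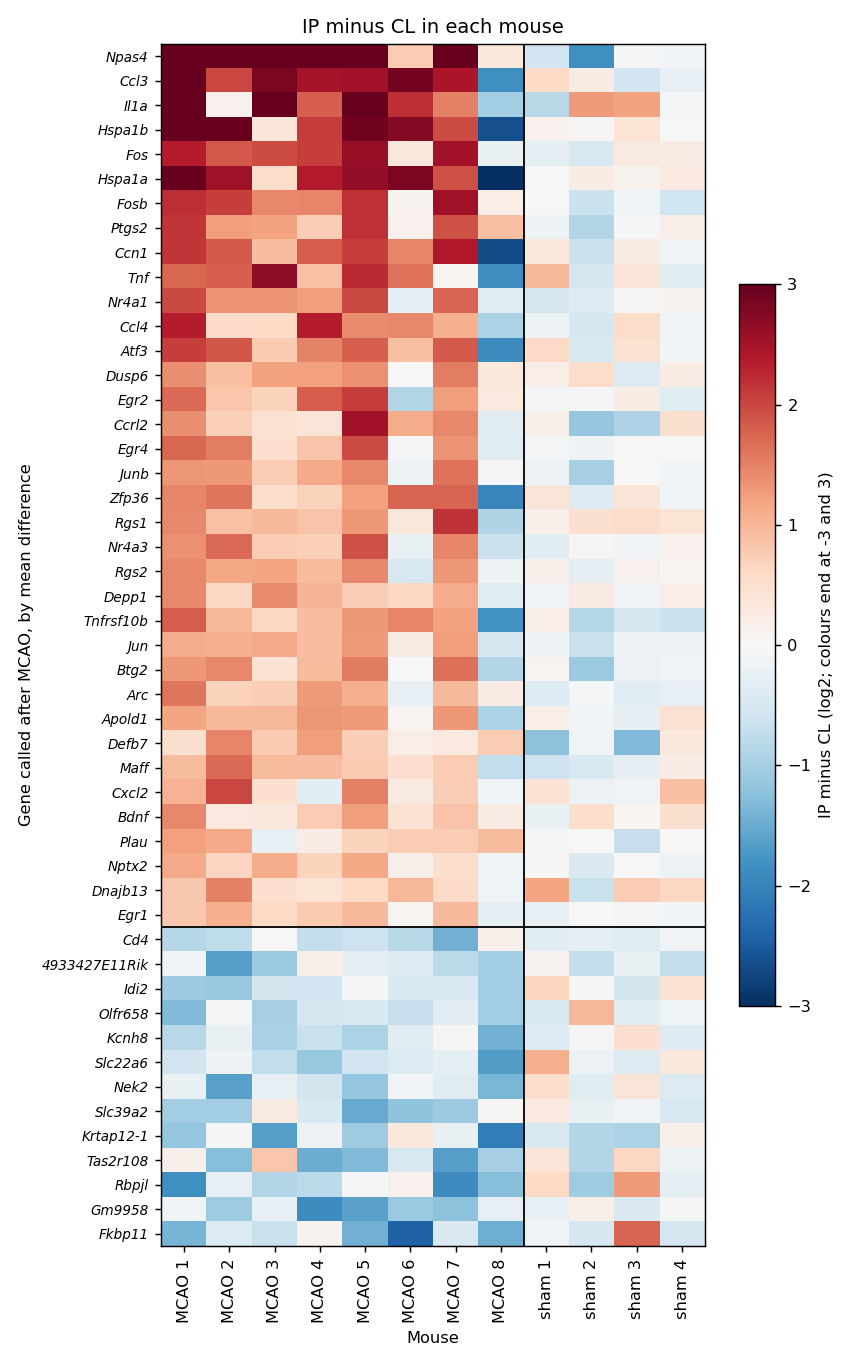
IP minus CL (log2; red: higher in IP, blue: lower) of the 49 genes called after MCAO, from the highest mean to the lowest, in 8 MCAO and 4 sham mice. Mouse 8 was below 0 in 27 of the 36 higher genes, and mouse 6 had small values in most transcription factors, as 0.10 in Fosb, but 2.87 in Ccl3 and 2.81 in Hspa1a.

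Blood vessel and matrix genes gave 3 calls of 19 measured (12 tested), all higher, with a list median of 0.19 and of 0.31 without mouse 8. Ccn1, a matrix protein encoded by an early gene, was 1.25 ± 1.65 higher (adjusted p = 0.0253) and 1.81 without mouse 8 (adjusted p = 6.91e-08). Its IP signals ran from 9.42 to 10.56 in mice 1 to 7 against 7.81 in mouse 8. Apold1, an endothelial early gene, was 0.77 (adjusted p = 0.116) and Plau, the urokinase plasminogen activator, 0.68 higher (adjusted p = 0.14). Plau was 0.95 higher in IP of mouse 8 too. Without mouse 8 Thbs1, which holds back vessel growth, Adamts1 and Akap12 were added, at 1.03 (adjusted p = 0.00882), 0.82 (adjusted p = 0.0302) and 0.61 (adjusted p = 0.248). Of 17 measured targets of p53 (6 tested), Btg2 and the death receptor gene Tnfrsf10b, at 0.81 (adjusted p = 0.163), were called, at a list median of 0.01. Depp1, a FoxO target, was 0.83 higher (adjusted p = 0.0269) and the only call among 20 genes that respond to glucocorticoids or FoxO (7 tested).

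Several lists held no call. They were 16 NF-kappaB subunits and inhibitors (5 tested, median −0.05), 16 innate receptors (9 tested, 0.04), 16 adhesion genes (5 tested, 0.01), 20 targets of the hypoxia-inducible factors (3 tested, 0.03) and 20 interferon-response genes (16 tested, −0.05), so 0 calls says little for most of these genes. Of these, Cd14, the lipopolysaccharide co-receptor, and Adm, a vessel-widening peptide, were called without mouse 8, at 0.67 (adjusted p = 0.179) and 0.68 (adjusted p = 0.151). Nfkbiz and Tlr2 were each higher in IP in 8 of 8 mice, at 0.48 (adjusted p = 0.548) and 0.45 (adjusted p = 0.626), without a call; this held for 0.636% of all genes tested. Of the housekeeping lists 0 genes were tested, and the medians were −0.01 for 42 nuclear genes of the respiratory chain and 0.02 for 30 ribosomal protein genes.

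**Figure D3:**
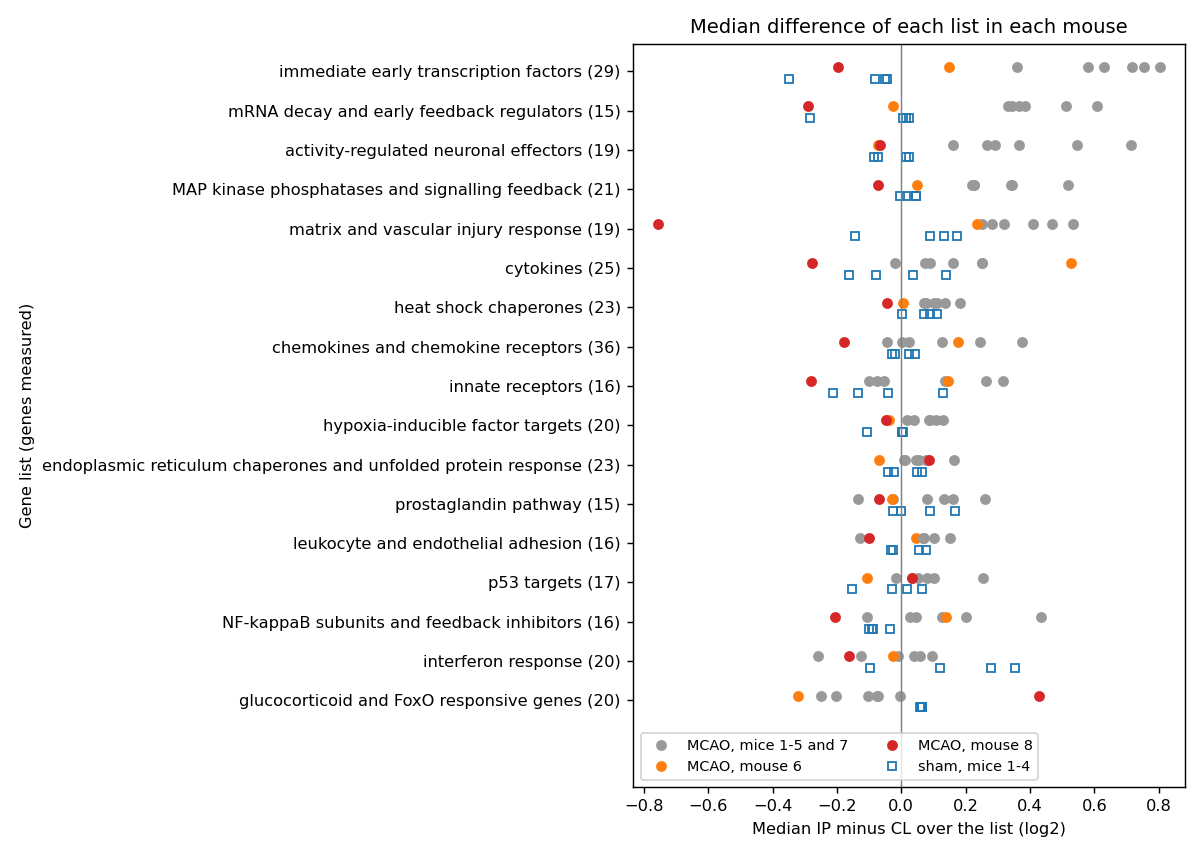
Median IP minus CL (log2) over each of 17 gene lists in each old mouse (circles: 8 MCAO mice, mice 6 and 8 in colour; squares: 4 sham mice), with the number of genes measured in brackets. The matrix and vascular list was at −0.76 in mouse 8 and between 0.24 and 0.53 in mice 1 to 7, and the glucocorticoid list was at 0.43 in mouse 8 and between −0.32 and 0 in the others.

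The higher genes differed in how both hemispheres of mice 6 and 8 stood, which was noticed in the values and is a description. The counts were not made over all genes tested, so the pattern cannot be called particular to these genes. Among the MCAO mice, IP minus CL also varied most over all genes in mice 6 and 8. The SD was 0.44 in each, against 0.35 to 0.41 in the other MCAO mice. Sham mouse 2 was at 0.45 and the other sham mice at 0.34 to 0.39, so such a spread was not particular to mice 6 and 8. In 19 of the 36 the CL signals of both mice exceeded those of the other 6: Npas4, Fos, Fosb, Nr4a1, Dusp6, Junb, Egr4, Egr2, Atf3, Ccn1, Rgs2, Jun, Arc, Nr4a3, Btg2, Apold1, Maff, Nptx2 and Egr1. Egr2 shows its size: the CL signal was 10.65 in mouse 6 and 9.14 in mouse 8, against 6.70 to 7.53 in the other 6, while their IP signals were 9.77 and 9.43. In 10 further genes only mouse 8 had such a CL signal: Ccl3, Il1a, Hspa1b, Hspa1a, Ccl4, Depp1, Tnf, Rgs1, Zfp36 and Tnfrsf10b. The IP signal of mouse 8 was below that of the other 7 mice in 9 of these 10, all but Depp1, and in 8 of the 19, Npas4, Fos, Atf3, Ccn1, Jun, Nr4a3, Apold1 and Maff. Among the 19 genes, Atf3, Ccn1, Jun, Btg2, Apold1 and Maff had their highest CL signal in mouse 8, so both sets overlap in what mouse 8 showed. Atf3 reached 8.34 in CL of mouse 6 and 9.40 in CL of mouse 8, against at most 7.37 elsewhere. In mouse 8 the IP signal of Npas4, Fos, Fosb, Egr2, Egr4, Dusp6, Junb and Rgs2 exceeded the CL signals of mice 1 to 5 and 7, while that of Ccl3, Il1a, Hspa1a, Hspa1b, Ccl4, Tnf, Rgs1, Zfp36 and Tnfrsf10b, and of Ccn1, Apold1 and Maff among the 19, lay below the highest of them.

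Of the 36 higher genes 21 were higher in IP in mice 1 to 7 and lower in mouse 8, a pattern of 1.13% of all genes tested, and 5 were higher in 8 of 8 mice, Npas4, Fosb, Ptgs2, Defb7 and Bdnf. The opposite, lower in mice 1 to 7 and higher in mouse 8, was found in 28 genes, 0.574% of those tested. Mouse 6 had IP above CL in 28 of the 36 and the other mice, without mouse 8, in 35 or 36. The median difference of the 36 was 0.34 in mouse 6, −0.32 in mouse 8 and 0.79 to 1.48 in the other 6. In the sham mice it was between −0.33 and 0.00. Over all genes tested, Mboat1, a phospholipid acyltransferase gene, was the single one (0.0205%) with every IP array above every CL array, at a mean difference of 0.44 (adjusted p = 0.675), and it was not called.

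**Figure D4:**
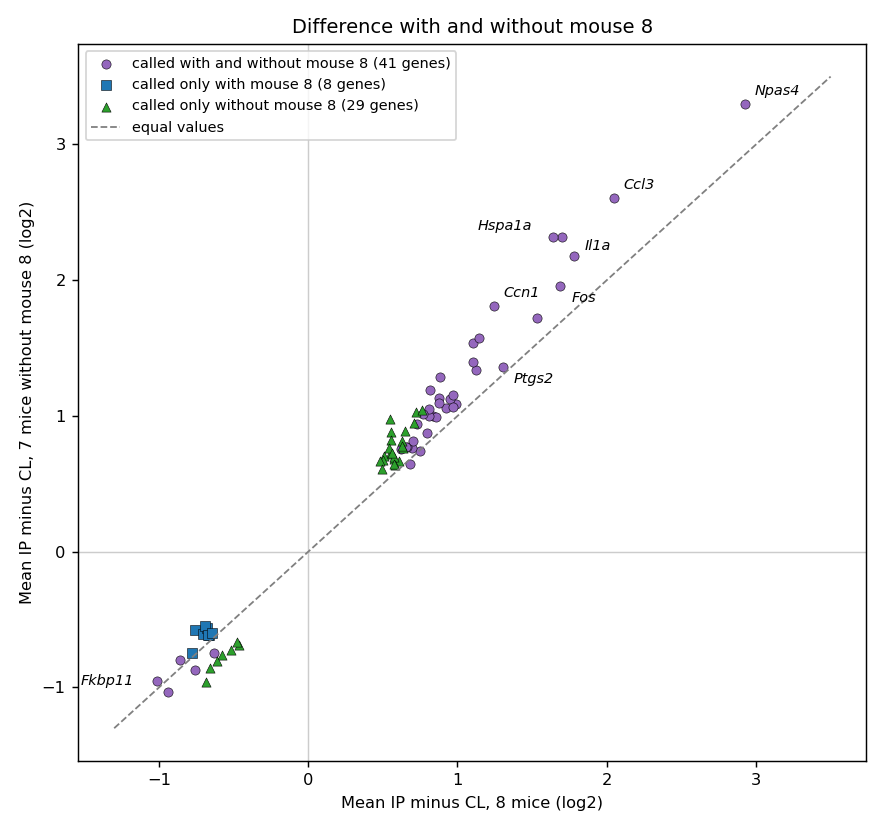
Mean IP minus CL (log2) of the 78 genes called with or without mouse 8, over 8 mice (horizontal) and 7 mice (vertical); the dashed line marks equal values. Ptgs2 lies close to the line with 1.31 and 1.36, and Hspa1a far above it with 1.64 and 2.32.

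Sequences upstream of 5 of these genes are shown because calcium, serum and heat shock act on early genes through known DNA elements. They are the 250 bases before a RefSeq transcript start (GRCm38.p6), 5′ to 3′ on the gene's strand, with matches in capitals. Npas4 (chr19:4989972-4990221, minus strand, within the annotated gene) and Fos (chr12:85473640-85473889, plus strand) hold TGACGT, the first 6 bases of the cAMP response element, or its reverse. Btg2 (chr1:134079156-134079405, minus strand) holds the whole element, TGACGTCA. Zfp36 (chr7:28379229-28379478, minus strand) holds a CArG box, the site of serum response factor. Hspa1a (chr17:34972157-34972406, minus strand) holds GAANNTTC, a pair of units of the heat shock element.
Npas4: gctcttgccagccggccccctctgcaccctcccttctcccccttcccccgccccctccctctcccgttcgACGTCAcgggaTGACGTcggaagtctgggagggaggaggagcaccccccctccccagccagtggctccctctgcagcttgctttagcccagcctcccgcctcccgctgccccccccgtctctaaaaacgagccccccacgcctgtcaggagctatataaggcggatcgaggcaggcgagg
Fos: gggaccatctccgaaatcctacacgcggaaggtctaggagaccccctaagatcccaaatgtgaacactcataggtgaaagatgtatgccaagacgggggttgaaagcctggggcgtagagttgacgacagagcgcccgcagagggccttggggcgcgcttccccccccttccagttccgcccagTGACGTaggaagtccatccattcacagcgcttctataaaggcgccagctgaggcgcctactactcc
Btg2: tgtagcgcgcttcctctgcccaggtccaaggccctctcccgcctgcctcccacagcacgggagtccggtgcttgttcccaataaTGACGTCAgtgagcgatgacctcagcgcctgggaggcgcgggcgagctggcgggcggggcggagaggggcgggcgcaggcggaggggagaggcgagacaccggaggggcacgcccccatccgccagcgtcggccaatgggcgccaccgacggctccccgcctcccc
Zfp36: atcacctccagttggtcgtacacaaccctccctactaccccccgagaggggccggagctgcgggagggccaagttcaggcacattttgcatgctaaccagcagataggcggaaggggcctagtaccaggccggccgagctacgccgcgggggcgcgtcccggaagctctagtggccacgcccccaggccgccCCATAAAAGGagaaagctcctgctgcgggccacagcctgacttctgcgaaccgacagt
Hspa1a: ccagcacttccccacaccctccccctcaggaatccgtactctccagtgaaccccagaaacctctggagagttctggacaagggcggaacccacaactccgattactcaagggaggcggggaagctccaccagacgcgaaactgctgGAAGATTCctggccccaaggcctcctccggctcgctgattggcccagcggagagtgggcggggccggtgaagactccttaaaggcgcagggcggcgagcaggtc

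In Npas4, TGACGT begins 169 bases before the start, and its reverse, ACGTCA, 180 bases before it. In Fos, TGACGT begins 66 bases before the start. The upstream sequence of Hspa1b differs from that of Hspa1a in 3 of 250 bases and holds the same match 104 bases before the start. RefSeq windows of 300 bases, 250 before and 50 after a start, were found for 29 of the 36 higher genes (43 windows). TGACGT on either strand was in 17 of the 43 windows (39.5%), those of 13 genes, and in 7.51% of all 32851 windows; it overlaps the whole element, which was in 2 genes, Btg2 and Maff (4.65% of windows, against 1.79%). The CArG box, CC and GG with 6 A or T between, was in Egr2 and Zfp36 (11.6% of windows against 1.63%). GAANNTTC was in 5 genes, Hspa1a, Hspa1b, Jun, Depp1 and Bdnf (11.6% against 7.86%), and the element of 3 units, GAANNTTCNNGAA or its reverse, in 0 (0.603% of all). Windows of 1 gene overlap each other, and a match shows only that these letters are there.

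The 13 lower genes had smaller differences and mostly low signals. Their mean IP signal in 11 of 13 lay between 2.22 and 4.79, and those of Slc22a6, at 5.81, and Cd4, at 8.61, were higher. Fkbp11, a prolyl isomerase of the endoplasmic reticulum, had log2 signals in IP from 2.67 over 3.89 to 5.21 and in CL from 4.44 over 5.08 to 5.21, and was lower in 7 of 8 mice (−1.02 ± 0.81, adjusted p = 0.0229). Gm9958, a predicted gene, was lower in 8 of 8 mice (−0.94 ± 0.68, adjusted p = 0.0137), with IP signals from 3.66 to 5.67 and CL signals from 5.21 to 6.20. Slc39a2, a zinc transporter, was at −0.76 (adjusted p = 0.0902), Rbpjl, a transcription factor of the pancreas, at −0.86 (adjusted p = 0.0825), and Kcnh8, a potassium channel, at −0.68 (adjusted p = 0.148). Slc22a6, a transporter of the meninges, was lower in 8 of 8 mice at −0.69 ± 0.50 (adjusted p = 0.153), most in mouse 8 with −1.68, and at −0.55 without it (adjusted p = 0.394). The other lower genes were Krtap12-1, Tas2r108, Nek2, Idi2, Olfr658 and 4933427E11Rik, at −0.65 to −0.78. Mouse 8 was below 0 in 11 of the 13. In sham mice the mean differences of the 13 ran from −0.53 for Krtap12-1 to 0.21 for Slc22a6. None of the 13 was called for a difference between MCAO and sham mice.

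In the meninges and mural list 1 of 14 genes, Slc22a6, was called and 11 of 14 were on average lower in IP, and the mean log2 signal of the list was 6.90 to 7.41 in IP and 7.13 to 7.86 in CL, so the groups overlapped; its part in the result for Slc22a6 was not tested. Of 9 lymphocyte markers, Cd4 was called lower (−0.63 ± 0.51, adjusted p = 0.217), at log2 signals of 7.42 to 9.61 in IP and 8.77 to 9.62 in CL. The list as a whole was at 3.96 to 4.32 in IP and 4.08 to 4.32 in CL. Cd4 was lower in IP in sham mice too, at a mean of −0.26 (−0.37 to −0.11), and MCAO minus sham was −0.37 (adjusted p = 0.948). Lists of neurons (also cortical and striatal), astrocytes, microglia, oligodendrocytes, endothelium, neutrophils, monocytes, red blood cells and choroid plexus held 0 calls, with medians between −0.19 and 0.08. Most of their markers were not tested: 0 of 13 passed the filter for neurons and 0 of 3 for red blood cells, 1 each for cortical neurons, astrocytes, microglia, endothelium and monocytes, and 2 of 11 for oligodendrocytes, against 7 of 11 for striatal neurons, 8 of 10 for choroid plexus and 10 of 13 for neutrophils. On average 10 of 10 choroid plexus, 10 of 11 striatal, 7 of 8 monocyte and 3 of 3 red blood cell markers were below 0. Of all 19505 genes measured, 9203 had a mean above 0. In the same order, the list medians were −0.19, −0.12, −0.14 and −0.08 after MCAO and −0.36, −0.21, 0.09 and 0.07 in sham mice. The striatal median was below 0 in each sham mouse, from −0.32 to −0.07. The choroid plexus median per mouse ran from −1.39 to 0.45 after MCAO and from −1.73 to 0.22 in sham mice. The choroid plexus gene Ttr varied most, from 5.84 to 13.23 after MCAO and mostly near 13 in sham mice, with 0 of 10 markers of its list called. In tissue of mixed cells, a lower signal may stand for fewer cells of a type or for less RNA per cell, which cannot be told apart.

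Differences of IP minus CL between MCAO and sham mice were called for 6 genes (0.123% of those tested): Npas4, Fosb, Fos, Ptgs2, Lif and Ccl3. All had a more positive IP minus CL after MCAO. Lif was at 0.38 after MCAO and from −2.11 to −0.13 in sham mice, so its larger distance from 0 was in sham mice. The count of genes called was 1 without sham mouse 2, 2 without sham mouse 1 or MCAO mouse 1, 3, 5 or 7, and 0 with no filter. Without mouse 8 there were 27 genes more positive and 3 more negative after MCAO (0.554% and 0.0615%). Among the 27 were Hspa1b at 2.18, Ccn1 at 1.85 (adjusted p = 0.0022 for both) and Tnfrsf10b at 1.64 (adjusted p = 0.00971). Nr4a1, Atf3, Jun, Ccl4, Junb, Ccrl2, Il1a, Btg2, Maff, Tnf and Zfp36 were among them too.

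Old mice were compared with diabetic mice (BKS-Leprdb/db/JOrlRj males, 8 to 12 weeks old, with a defective receptor for leptin) and with young males of their own strain, aged 8 to 12 weeks, by IP minus CL of 8 mice per group after the same surgery. Each group was normalised on its own. Old and diabetic mice were run together but differ in strain and age as well as diabetes, and the young males were run before them, so age and run cannot be told apart. The study set 2 young males aside at quality control, which the labels do not mark, and all 8 were used here. Against diabetic mice 0 genes were larger and 2 smaller in old mice (0.041%). S100a9, a neutrophil gene, was −0.14 ± 0.76 in old and 1.41 ± 0.72 in diabetic mice (SD, n = 8 each; difference −1.55, SE 0.32, adjusted p = 0.162), and the olfactory receptor gene Olfr658 was −0.67 ± 0.42 in old and 0.43 ± 0.28 in diabetic mice (difference −1.10, SE 0.24, adjusted p = 0.181). Neither was called without old mouse 8, when 0 genes were. In old mice S100a9 had log2 signals of 3.89 to 5.85 in IP and 3.99 to 5.68 in CL, and 0 of 13 neutrophil markers were called.

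Against young males 0 genes were called, with 226 at an unadjusted p under 0.05, no more than chance alone gives. Npas4 was 2.93 ± 1.53 in old, 3.12 ± 1.83 in diabetic and 2.36 ± 1.74 in young males, and the difference of old from young was 0.56 (SE 0.55, adjusted p = 0.989). Hspa1a was 1.64 ± 2.09, 2.45 ± 1.33 and 1.17 ± 1.27 in the same order. Without old mouse 8, limma called 4 genes. The difference of old from young males was then 1.71 for Tnf (SE 0.30, adjusted p = 0.00885), 1.74 for Il1a (adjusted p = 0.0574) and 1.24 for Ccl4 (adjusted p = 0.221). The difference for Cd4 was −1.08 (adjusted p = 0.181). With mouse 8 the difference was 1.28 for Tnf (adjusted p = 0.763), 1.34 for Il1a and 0.94 for Ccl4, and none was called. Mouse 8 was left out because its differences looked reversed, with Tnf at −1.86, which by itself raises the old mean of such genes. The calls without it, here and elsewhere in the text, are therefore a description, and those against young males are no test of age. When each of the 28 pairs of young males was left out, an alternative chosen after seeing the data, 0 or 1 gene was called with all old mice and 1 to 5 without old mouse 8, when Tnf was called in 28 of 28, Il1a in 18, Cd4 in 6 and Ccl4 in 3.

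**Figure D5:**
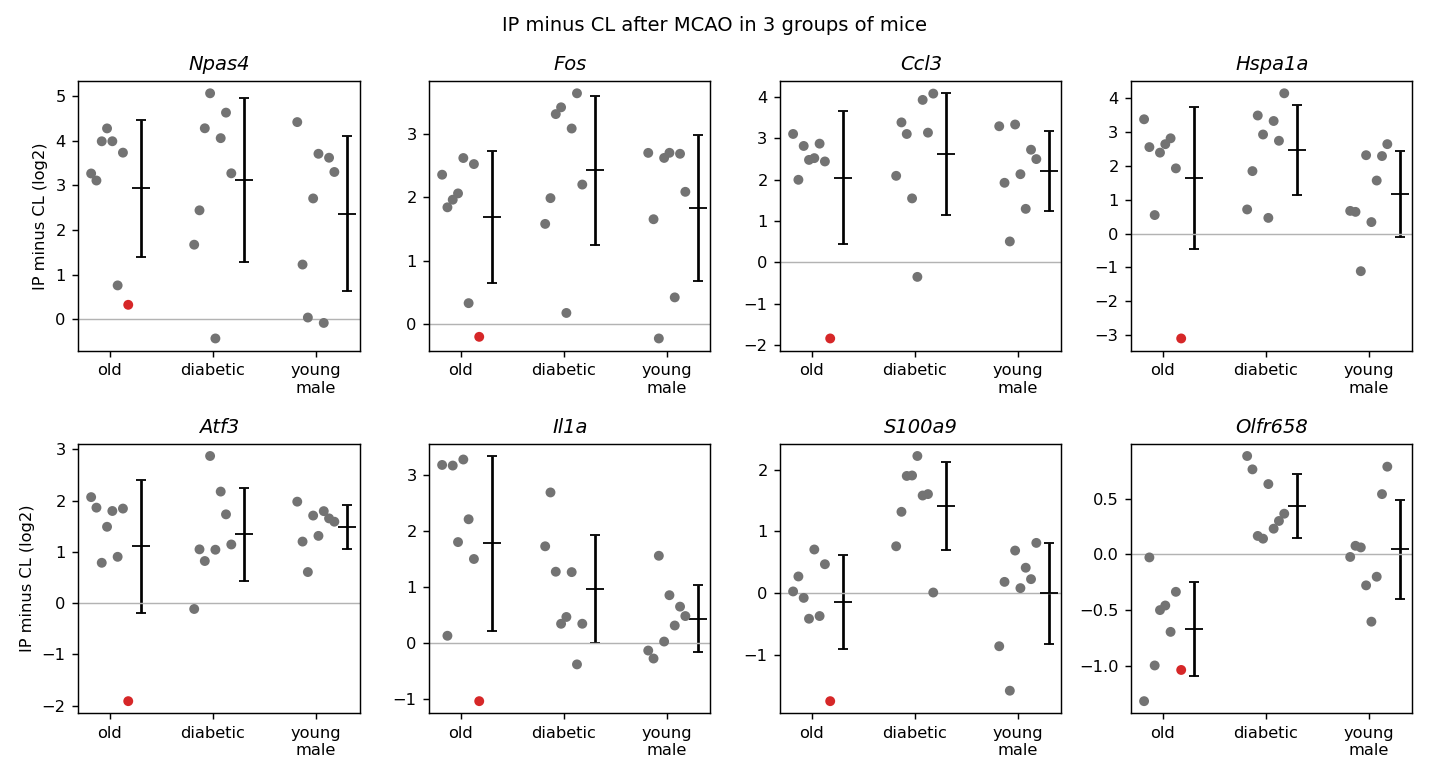
IP minus CL (log2) of 8 genes after MCAO in 8 old, 8 diabetic and 8 young male mice (points; bars: mean ± SD; old mouse 8 in red). For S100a9 the means were −0.14 in old and 1.41 in diabetic mice with overlapping points, and the 3 groups overlapped for Npas4 and Fos.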

How the data were processed

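Per the labels and methods, the authors computed log2 signals by Robust Multiarray Average (background correction and quantile normalization) for each group separately. Affymetrix Expression Console is named, without version, in the submitters' processing notes. For a run of 8800 probe sets the old and the diabetic values stood 3 rows away from their names and were moved up. The correlation with the young males then rose from 0.168 to 0.971 for old mice and from 0.167 to 0.970 for diabetic mice. Of 29129 probe sets 19572 carried a symbol, for 19505 genes (the highest mean stood for a symbol). Olfactory, taste and keratin genes at low signal may lie near background, which the files do not give. The same holds for Il1a, Cxcl2 and Tnf, whose mean log2 signals in CL were 2.93, 3.42 and 3.74.

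IP and CL arrays of 8 MCAO and 4 sham old mice entered 1 limma 3.58.1 model (R 4.3.3) with the mouse as a fixed block, after genes under the 75 percentile of the standard deviation were left out (4877 kept), as in the study's methods. Hemispheres are of 1 animal, so the numbers pair them; their deviations correlated at a median of 0.111 (MCAO) and 0.122 (sham). Genes were called at a Benjamini-Hochberg adjusted p under 0.25; those called in sham too with a difference under 0.5 would be discarded (0 were). Differences between groups were fitted to IP minus CL per mouse. The model was run on simulated data with independent normal noise and the same change in every MCAO mouse. It recovered 94% of 100 changes of 1 and 40% of 100 changes of 0.5, and 20.7% of its 169 calls were unchanged genes. The simulation held no mouse like mouse 6 or 8, so it does not show how the model does with them. Tables and figures used Python 3.11.15, pandas 2.3.3 and matplotlib 3.10.9. Members and 32 gene lists were chosen with earlier results of these data known. Named were all genes called at 0.05, the 15 largest rises and 10 largest falls, called list members and up to 4 members of each list with the largest difference; genes called without mouse 8 and the 6-base and 2-unit motifs were chosen after their values were seen. Alternatives covered the block, filter, threshold, variance, arrays, scaling, probe sets and each mouse left out. The number of mice limits the precision.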

Additional observations from a re-analysis of the deposited data

Results flagged for a closer look

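In 7 called genes 1 old MCAO mouse stood apart from the other 7 in IP minus CL (log2), each time mouse 8: Hspa1a at −3.10 (others 0.55 to 3.37), Ccn1 at −2.67 (0.92 to 2.40), Zfp36 at −1.96 (0.53 to 1.75), Atf3 at −1.91 (0.79 to 2.07), Ccl3 at −1.85 (2.00 to 3.11), Tnfrsf10b at −1.81 (0.61 to 1.82) and Depp1 at −0.33 (0.63 to 1.45). In sham mice, Jun was at −0.67 in mouse 2 (others −0.18 to −0.16) and Plau at −0.68 in mouse 3 (others −0.04 to 0.00). Chance flags about 1 in 20 of the 98 groups looked at.

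By limma's test of the difference, 6 effects were called between MCAO and sham mice at an adjusted p under 0.25. They were Npas4 (by 3.56, adjusted p = 2.21e-05), Fosb (1.88, 0.0335), and Ccl3 (2.05), Fos (1.74), Ptgs2 (1.53) and Lif (1.50), each at 0.134. Between old and diabetic mice S100a9 (−1.55, adjusted p = 0.162) and Olfr658 (−1.10, 0.181) were called. Both counts became 0 in some settings: with no filter for MCAO against sham, and at 0.05 for old against diabetic mice.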

How the results depend on the processing

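The 49 calls after MCAO became 8 with no filter, 194 with a filter on the mean signal (94 higher, 100 lower; 24 shared), 26 at an adjusted p under 0.05 and 75 with trended and robust variance, and 30 to 70 when 1 mouse was left out; 21 of the 49 were called each time. They were 30 without MCAO mouse 1 and without mouse 5, 31 without mouse 2, and 70 without mouse 8. Without the mouse as a block 35 were called, all among the 49, and 0 of the 49 changed direction where tested (26 passed the filter on the mean signal). In sham mice the count was 2 with trended and robust variance and 0 to 2 with 1 mouse left out (2 without sham mouse 3), and 0 otherwise. For MCAO against sham, 6 calls became 3 with no replicate block, 0 with no filter or the filter on the mean signal, 2 at 0.05, 35 with trended and robust variance, and 1 to 30 with 1 mouse left out (1 without sham mouse 2, 2 without MCAO mouse 1, 3, 5 or 7 or sham mouse 1, 30 without MCAO mouse 8). For old against diabetic mice, 2 calls became 11 with no filter, 0 at 0.05 and 0 to 6 with 1 mouse left out (0 without old mouse 1, 3, 6 or 8 or diabetic mouse 5 or 7, 1 without diabetic mouse 1, 5 without 6 and 6 without 8). For old against young males, 0 became 1 with no filter and 0 to 4 with 1 mouse left out (4 without old mouse 8), and 0 to 1 with 2 young males left out. With no filter more genes were tested and the moderated SE rose as well, for Npas4 from 0.29 to 0.42 (adjusted p = 0.156); the causes of the other changes were not tested. Precision is limited by 8 and 4 mice.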

Other observations

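Leaving mouse 8 out added 29 called genes, 22 higher and 7 lower. Among the higher ones outside the lists were Kcne4, a potassium channel subunit (1.04, adjusted p = 0.0193), Asb4 (0.88, adjusted p = 0.0271) and Gpr183, an oxysterol receptor (0.65, adjusted p = 0.244). Among the lower ones were Hif3a, a dampener of the hypoxia response (−0.67, adjusted p = 0.126), the tight junction gene Cldn1 (−0.76, adjusted p = 0.134), Zfp189 (−0.69, adjusted p = 0.104) and Ada, adenosine deaminase (−0.72, adjusted p = 0.116). They were chosen after their values were seen.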
